A study of Mus musculus with 38 samples.

Results

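Cytokines, chemokines and their receptors were followed in the spleens of mice given cyclophosphamide. The members were array probes that name a single gene whose symbol starts with Il and a digit, Ccl, Cxcl, Ccr and a digit, Cxcr, Tnf, Ifn, Csf or Tgfb, and that were measured in 3 or more mice of each of the 4 groups. Il1b, Il2ra, Cxcl10, Cxcl12, Tnfrsf10b, Tnfrsf18 and Tnfrsf4 were left out of this choice. It gave 85 genes on 86 probes, Cxcr4 having 2, among 5925 named genes and 8319 probes tested, of 13443 probes on the array. The choice rests on names, so it also holds proteins that are no cytokine or receptor, such as the intracellular proteins of the Tnfaip series and the enzyme Il4i1.

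The mice were of the inbred strain DBA/2, and no age is given in the labels. Splenocytes were taken from 5 untreated mice, and from 4, 5 and 5 mice that had been injected intraperitoneally with cyclophosphamide at 83 mg/kg and were studied 1, 2 and 5 days later. The labels name no vehicle injection for the untreated mice. Each value is a log2 ratio of spleen RNA, labelled with Cy5, over a common pool of bone marrow cells labelled with Cy3, and the 2 technical arrays of a mouse were averaged. In such bulk samples fewer cells of a type and less RNA per cell cannot be told apart.

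Cytokines are secreted or membrane-bound signals between immune cells: interleukins, interferons and colony stimulating factors act largely through receptors that engage JAK kinases and STAT factors, ligands of the TNF family through adaptors that lead to NF-kB, and ligands of the TGF-beta family through SMAD proteins. Chemokines bind receptors coupled to G proteins and set where cells settle, and in the spleen they keep B cells, T cells and macrophages in separate compartments. Cyclophosphamide is an alkylating drug that is most toxic to dividing cells and depletes lymphocytes and blood cell precursors.

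The 2 arrays of a mouse correlated between 0.581 and 0.962 over all probes, with the lowest values in mice 4 and 2 of the untreated group and mouse 5 of day 5, and the log2 ratios of a mouse spread most widely on day 2 (SD 0.517 to 0.692, against 0.413 to 0.533 in untreated mice). Lists of marker genes were read in untreated mice to check the tissue. T cell genes averaged a log2 ratio of 0.39, mature B cell genes 0.43 and macrophage genes 0.63, whereas neutrophil genes averaged -2.14. Natural killer cell genes, also looked for above 0, did not lie there: they averaged -0.09, with mice between -0.34 and 0.09. The number of mice limits the precision. Within a group the SD of a member had a median of 0.31, against 0.27 over all probes tested, and the difference between the 2 arrays of a mouse had a median size of 0.137 for members and 0.121 for all probes. Of 1556 member values per mouse, 102 came from 1 array, and 50 of 86 members had a value in every mouse.

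**Figure D1:**
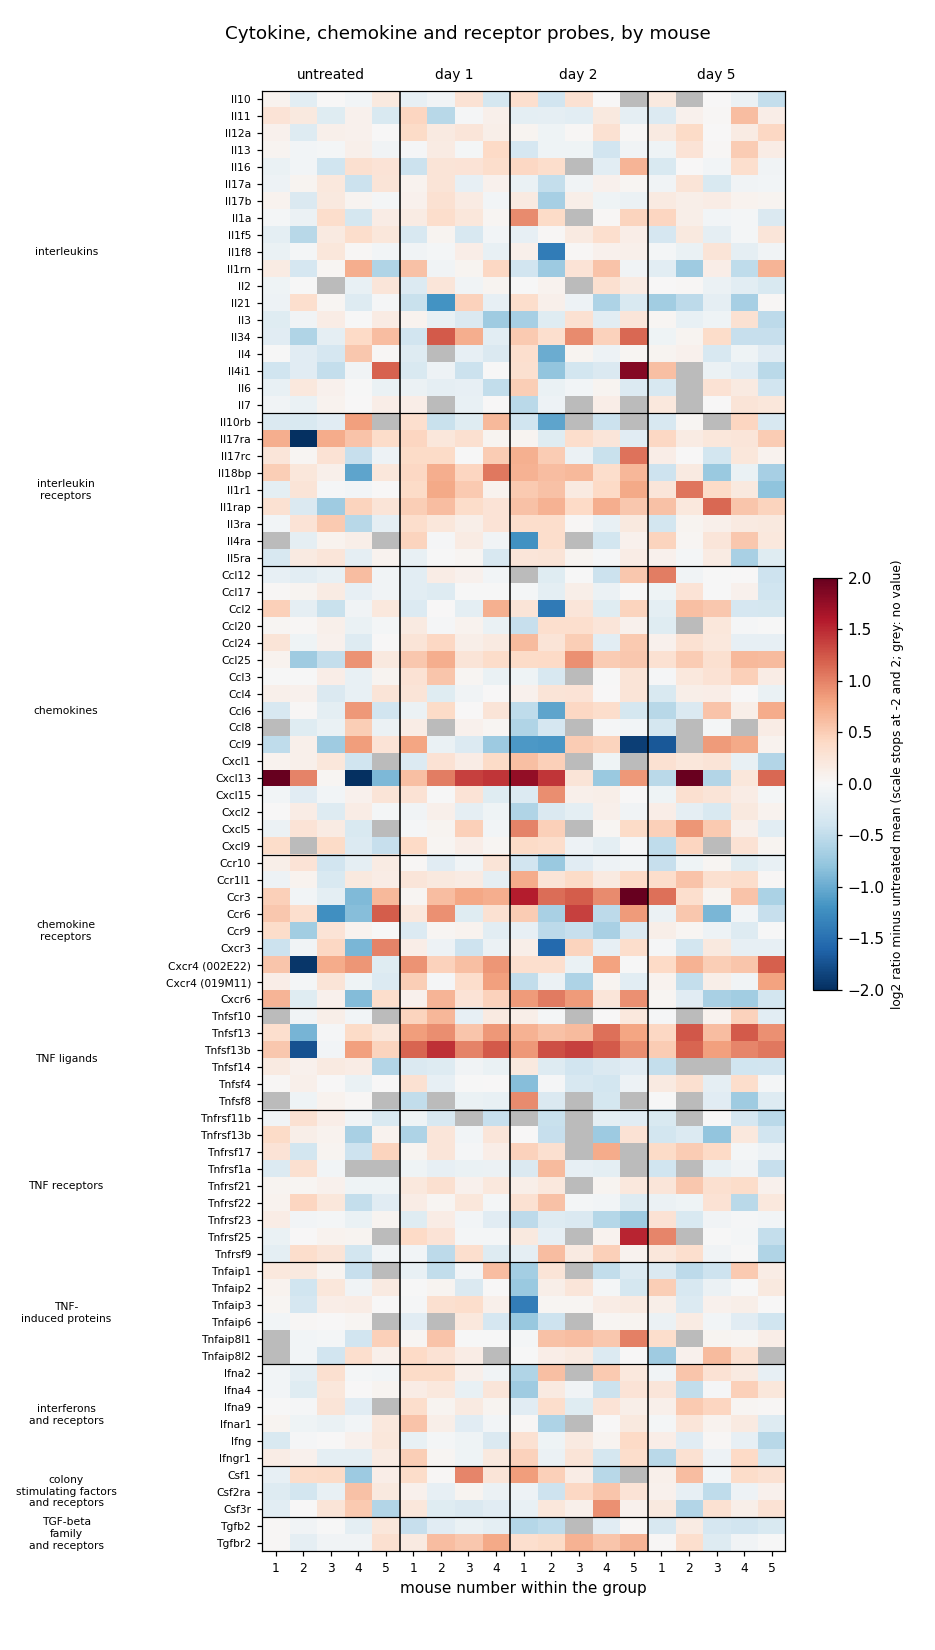
Log2 ratio of each member probe (rows, by class) in each mouse (columns), minus the mean of the untreated mice; red is higher, blue lower and grey without a value. Ccr3 and Cxcr6 are red in the day 2 columns, and Tnfsf13 and Tnfsf13b are red in the columns of all 3 treated groups. The untreated columns of Tnfsf13 and Tnfsf13b hold both colours, with mouse 2 the lowest. Most rows hold both colours.

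Few members changed at any time. Against untreated mice, none of the 86 members passed the test on day 1, when 2.33% of all probes did. The 5 members with an unadjusted p below 0.05 on that day (5.81%, against 13.2% of all probes) were Tnfsf13b, Tnfsf13, Tgfbr2, Il18bp and Il1rap. On day 2, 6 members passed (6.98%, against 8.31% of all probes): the chemokine receptors Ccr3 and Cxcr6, the TNF family ligands Tnfsf13 and Tnfsf13b and the TGF-beta receptor Tgfbr2 rose, and the TNF receptor Tnfrsf23 fell. The share of all probes that rose on day 2 was 3.31%, and the share that fell was 5%. An unadjusted p below 0.05 on day 2 was found for 19 members (22.1%, against 20.9% of all probes). On day 5 no member passed against untreated mice, when 0.0721% of all probes did (0.0481% rose and 0.024% fell), and 7 members had an unadjusted p below 0.05 (8.14%, against 5.22% of all probes). Under other settings of the processing, or with 1 mouse left out, 8 more members passed on day 2 in 1 to 4 settings each: Il17ra, Il1rap, Ccl24, Ccl25, Ccr9, Tnfrsf17, Tnfaip8l1 and Tgfb2. Tnfsf13, Tnfsf13b and Tgfbr2 passed on day 1 in 3 to 7 settings each.

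Between day 2 and day 5, 4 members fell and none rose (4.65%, against 5.3% of all probes): Cxcr6, Il18bp, Ccr3 and Tgfbr2. In 1 to 5 other settings each, 3 more members passed here: Il34, Tnfsf4 and Tnfrsf23. Of all probes 1.5% fell and 3.8% rose between these days, and an unadjusted p below 0.05 was found for 13 members (15.1%, against 18.3% of all probes). Between day 1 and day 2 no member passed, when 0.0601% of all probes did, and 7 members had an unadjusted p below 0.05 (8.14%, against 6.02% of all probes). In the F-test over the 4 groups 5 members differed (5.81%, against 6% of all probes): Cxcr6, Tgfbr2, Il18bp, Ccr3 and Tnfsf13. The shares of members that passed lie near those of all probes in each of these comparisons, so the counts do not set the family apart. The median difference from untreated mice was 0.10, 0.07 and 0.01 on days 1, 2 and 5 for members, and 0.02, 0.01 and 0.01 for all probes. Red cell precursor markers had 8 of 13 probes lower on day 2 (median -0.91) and 0 higher, when 5% of all probes fell. Between day 2 and day 5, 7 of these 13 probes were higher (median 0.88) and 0 lower, when 3.8% of all probes rose. The part of red cell precursors in the levels of members was not tested. All p-values are from limma with Benjamini-Hochberg adjustment over the 8319 probes, with 0.05 as the threshold.

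**Figure D2:**
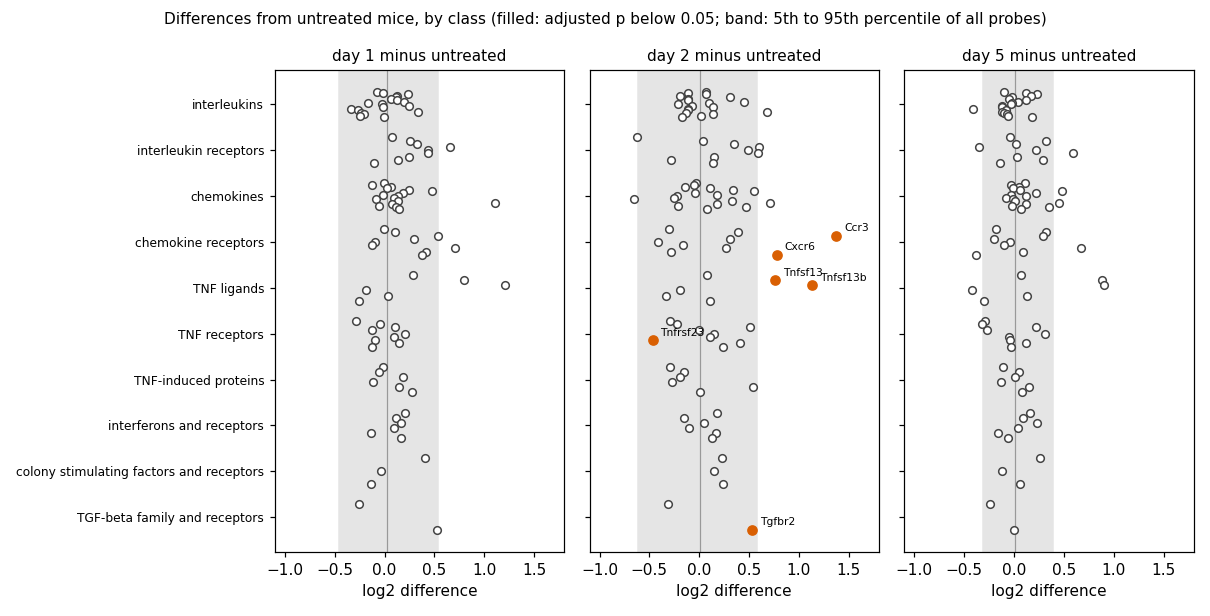
Log2 difference from untreated mice of each member probe (points) on days 1, 2 and 5, by class; filled points passed the test, and the grey band holds the values between the 5th and 95th percentile of all probes. On day 2 the 6 filled points are Ccr3, Cxcr6, Tnfsf13, Tnfsf13b, Tgfbr2 and Tnfrsf23, and no point is filled on day 1 or day 5.

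Among the chemokine receptors 2 of 9 probes rose on day 2 and none fell (3.31% and 5% of all probes). Ccr3, the receptor for eotaxins that eosinophils and basophils carry, had log2 ratios of 2.14, 1.69, 1.78, 1.51 and 2.59 in the 5 day 2 mice, against 1.05, 0.51, 0.37, -0.32 and 1.22 in the 5 untreated mice. Every day 2 mouse was above every untreated mouse. The difference of 1.37 ± 0.30 (SE) was a 2.59-fold rise (adjusted p = 0.0056). On day 1 the 4 mice had 0.61, 1.18, 1.33 and 1.29, from inside the untreated range to just above it (difference 0.54 ± 0.32, adjusted p = 0.509). On day 5 the values of 1.67, 0.90, 0.62, 1.14 and -0.07 lay 1.09 ± 0.30 below day 2, a 2.12-fold fall (adjusted p = 0.0368), with 1 day 5 mouse above the lowest day 2 mouse. Comparisons of day 5 with day 2 and of day 2 with untreated mice share the day 2 mice.

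The day 2 rise of Ccr3 passed the test without any 1 mouse and was lost under quantile normalization and when all arrays were rescaled to equal spread (difference 0.94 to 1.54 and adjusted p = 0.00278 to 0.178 over 31 settings). Other genes of eosinophils, basophils and mast cells did not rise with it. Among the 19 genes listed 6 probes were counted, leaving out the members Ccr3 and Il5ra. None of the 6 was higher, and Tpsb2, a mast cell tryptase, was lower on day 2. The mean of that list, centred per probe, ran between -0.43 and 0.15 in day 2 mice and between -0.06 and 0.52 in untreated mice. The part of these cells in the level of Ccr3 was not tested. Ccr1l1, a related receptor gene, differed by 0.39 on day 2 (adjusted p = 0.0962), and Ccl24, an eotaxin that binds Ccr3, by 0.34 (adjusted p = 0.205).

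Cxcr6, the receptor for Cxcl16 on activated T cells and on natural killer cells, had log2 ratios of 1.48, 1.67, 1.48, 0.87 and 1.54 on day 2, against 1.31, 0.39, 0.72, -0.24 and 0.98 in untreated mice. Day 2 mouse 4, at 0.87, overlapped the untreated mice. The rise was 0.77 ± 0.23, or 1.71-fold (adjusted p = 0.0406). On day 5 the level was 0.67, 0.40, -0.03, -0.06 and 0.26, below every day 2 mouse and 1.16 ± 0.23 lower, a 2.23-fold fall (adjusted p = 0.00409). Day 1 mice were at 0.72, 1.30, 0.91 and 1.10, inside the untreated range.

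The day 2 rise of Cxcr6 depended on the processing: it was lost in 6 of 12 other settings and in 8 of 19 fits without 1 mouse (untreated mice 2, 3 and 4, day 2 mice 1, 2, 3 and 5, and day 5 mouse 5), with adjusted p = 0.0136 to 0.558 and a difference of 0.32 to 0.94. Its fall between day 2 and day 5 passed without any 1 mouse, and was lost with technical arrays 1 alone, under quantile normalization and at equal spread (adjusted p = 0.000264 to 0.106). No T cell marker (6 probes) and no natural killer cell marker (7 probes) passed the test in either comparison, with medians of 0.32 and 0.06 on day 2 and of -0.07 and 0.11 between day 2 and day 5. The part of these cells in the level of Cxcr6 was not tested. The probe of its ligand Cxcl16 had values in 2 untreated mice and was not tested.

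The other chemokine receptors did not pass in any comparison as reported. Ccr9, the receptor for Ccl25, had log2 ratios of -0.54, -0.91, -0.83, -1.03 and -0.67 on day 2, against -0.01, -1.07, -0.11, -0.31 and -0.38 in untreated mice. Untreated mouse 2 was below every day 2 mouse and the other untreated mice were above them all. The 2 arrays of untreated mouse 2 disagreed, at -1.84 and -0.31. The difference was -0.42 (adjusted p = 0.136), and without that mouse it was -0.59 and passed (adjusted p = 0.00851, and 0.00851 to 0.5 over all settings run). It also passed with technical arrays 2 alone, without the 3 mice of low technical correlation and with array weights. Ccr6, carried by B cells and a subset of T cells, stood 1.24 ± 1.01 (SD, n = 5) above the marrow pool in untreated mice and differed by 0.31 on day 2 (adjusted p = 0.729). The untreated values of Ccr6 ranged between 0.01 and 2.45, so this gene varied more between untreated mice than between groups. Cxcr4, the receptor for Cxcl12 that holds blood cell precursors in the marrow, was below the pool on both of its probes. Probe 019M11 averaged -1.70 ± 0.21 in untreated mice, -1.29 ± 0.35 on day 1, -1.98 ± 0.27 on day 2 and -1.61 ± 0.46 on day 5, and probe 002E22 averaged -1.19 ± 1.17, -0.48 ± 0.21, -0.92 ± 0.37 and -0.52 ± 0.32. The probes disagreed on the sign of the day 2 difference (-0.28 and 0.27, adjusted p = 0.458 and 0.73). Untreated mouse 2 had -3.14 on probe 002E22, apart from the -1.43 to -0.30 of the other untreated mice.

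Of the 6 TNF ligand probes 2 rose on day 2, those of Tnfsf13 and Tnfsf13b, and none fell (3.31% and 5% of all probes). Tnfsf13 (APRIL) and Tnfsf13b (BAFF) are the ligands that keep B cells and plasma cells alive, made by myeloid and stromal cells. Tnfsf13 had log2 ratios of -0.45, -0.56, -0.51, -0.04 and -0.35 on day 2, against -0.81, -2.07, -1.16, -0.75 and -0.92 in untreated mice. No day 2 mouse overlapped the untreated mice. The rise was 0.76 ± 0.21, or 1.69-fold (adjusted p = 0.0305). Day 1 mice were at -0.30, -0.21, -0.59 and -0.27 and day 5 mice at -0.73, 0.10, -0.53, 0.08 and -0.24, so the groups did not overlap the untreated mice on those days either. The differences of 0.80 on day 1 (adjusted p = 0.0661) and 0.88 on day 5 (adjusted p = 0.348) did not pass the test over all probes.

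Tnfsf13b had log2 ratios of -0.66, -0.23, -0.15, -0.29 and -0.60 on day 2, against -0.98, -3.26, -1.57, -0.70 and -1.07 in untreated mice. Again no day 2 mouse overlapped the untreated mice. The rise was 1.13 ± 0.32, or 2.20-fold (adjusted p = 0.029). Day 1 mice were at -0.35, -0.06, -0.52 and -0.29, above every untreated mouse (difference 1.21 ± 0.34, adjusted p = 0.062). Day 5 mice were at -1.003, -0.35, -0.70, -0.54 and -0.46, and overlapped the untreated mice (difference 0.91 ± 0.32, adjusted p = 0.907). Without untreated mouse 2 the day 5 difference was 0.47 (adjusted p = 0.999, and 0.49 to 0.999 over all settings run).

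For both ligands the lowest untreated value was that of mouse 2, whose arrays correlated at 0.651. Its 2 arrays gave -3.27 and -3.25 for Tnfsf13b, and -3.27 and -0.88 for Tnfsf13. Without this mouse the day 2 difference of Tnfsf13b was 0.70 and passed the test (adjusted p = 0.017), as did its day 1 difference of 0.78 (adjusted p = 0.0287, and 0.0126 to 0.201 over all settings run), while the difference of Tnfsf13 on day 2 was 0.53 and did not pass (adjusted p = 0.067). Tnfsf13b lost its day 2 call in 4 of 19 fits without 1 mouse (untreated mouse 3, day 2 mice 2, 3 and 4), when the 2 groups were fitted by themselves and with technical arrays 2 alone (adjusted p = 0.00595 to 0.125). Tnfsf13 lost it without untreated mice 2 or 3 or day 2 mice 4 or 5, in those same 2 settings and without the 3 mice of low technical correlation (adjusted p = 0.0109 to 0.187). Its day 2 difference was 1.11 with technical arrays 1 alone and 0.41 with technical arrays 2 alone, the highest and lowest over the settings run. Under quantile normalization both rose on day 1 and on day 2.

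The receptors of these ligands did not pass the test as reported. Tnfrsf13b (TACI), found on B cells, averaged 0.75 in untreated mice and differed by -0.22 on day 2, and Tnfrsf17 (BCMA), found on plasma cells, differed by 0.51 on day 2 (adjusted p = 0.137). With technical arrays 2 alone the difference of Tnfrsf17 was 0.97 and passed (adjusted p = 0.00813, and 0.00813 to 0.565 over the settings run). The probe of Tnfrsf13c, the BAFF receptor, had values in 2 mice in all. Mature B cell markers did not pass on day 2 (8 probes, median 0.26), nor did plasma cell markers (4 probes, median -0.42). Macrophage markers, in contrast, had 3 of 9 probes higher on day 2 (Mrc1, Siglec1 and Slc40a1) at a median of 0.65, when 3.31% of all probes rose. Their centred mean ran between -0.16 and 0.69 on day 2 and between -0.70 and -0.18 in untreated mice. Of the other myeloid lists, monocyte markers had 0 of 6 probes higher and 1 lower on day 2 (F13a1, list median 0.22), when 5% of all probes fell. Neutrophil markers (5 probes, median -0.43) and dendritic cell markers (4 probes, median 0.14) did not pass on day 2. The part of any of these cells in the rise of the 2 ligands was not tested.

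Of the other TNF ligands, Tnfsf4 (OX40 ligand, a costimulator of T cells) averaged -0.19 ± 0.33 on day 2 and 0.15 ± 0.09 in untreated mice (adjusted p = 0.204). Tnfsf14 (LIGHT) was 0.42 lower on day 5 than in untreated mice (adjusted p = 0.923), and Tnfsf10 (TRAIL) differed by 0.08 on day 2. Tnfsf8 (CD30 ligand) differed by -0.25 on day 1. On day 2 it had values in 3 mice, 0.98, -0.25 and -0.32, and the 2 arrays of the highest gave 0.33 and 1.63. Its day 2 difference was 0.10 with that mouse and -0.32 without it, and neither passed (adjusted p = 0.875 and 0.419, and 0.419 to 0.988 over the settings run).

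Of 9 TNF receptor probes, Tnfrsf23 fell on day 2. It encodes a mouse decoy receptor that binds TRAIL without passing on a death signal. Its log2 ratios were -0.66, -0.40, -0.43, -0.71 and -0.85 on day 2, against 0.01, -0.19, -0.18, -0.28 and -0.08 in untreated mice. The groups did not overlap, and the fall was 0.47 ± 0.13 on the log2 scale, or 1.38-fold (adjusted p = 0.0262). Day 5 mice, at 0.14, -0.46, -0.22, -0.17 and -0.20, were 0.43 above day 2 (adjusted p = 0.054), with day 5 mouse 2 inside the day 2 range. The fall was lost at equal spread, under quantile normalization, with technical arrays 1 alone, with the 2 groups fitted by themselves, without the 3 mice of low technical correlation, and without untreated mice 1 or 5 or day 2 mice 4 or 5 (adjusted p = 0.00728 to 0.196). Its close relative Tnfrsf22 differed by 0.11 on day 2 and did not pass, and whether the probes tell the 2 genes apart was not tested. Tnfrsf21 (death receptor 6) was above every untreated mouse on days 1 and 5, with differences of 0.21 and 0.31 that did not pass (adjusted p = 0.461 and 0.907). Its lowest mice on these days, at 0.205 and 0.193, lay close to the highest untreated mouse, at 0.191. Tnfrsf11b (osteoprotegerin, the decoy receptor for RANK ligand) averaged 0.20 in untreated mice and -0.09, -0.10 and -0.10 on days 1, 2 and 5, and did not pass.

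In the TGF-beta family Tgfbr2 rose on day 2. It encodes the type II receptor, which binds the ligand and activates the type I receptor. Its log2 ratios were 0.90, 0.94, 1.25, 1.11 and 1.23 on day 2, against 0.57, 0.37, 0.48, 0.48 and 0.88 in untreated mice. Every day 2 mouse was above every untreated mouse, though the lowest day 2 value lay close to the highest untreated one. The rise was 0.53 ± 0.14, or 1.44-fold (adjusted p = 0.0206). Day 1 mice were at 0.74, 1.17, 1.10 and 1.32, with a difference of 0.52 that did not pass (adjusted p = 0.0651). On day 5 the mice were at 0.58, 0.89, 0.30, 0.48 and 0.55, 0.53 ± 0.14 below day 2 (adjusted p = 0.0297) and 0.003 from the untreated mean, with a 95% interval of -0.29 to 0.29 for that difference.

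Both calls of Tgfbr2 were lost at equal spread, under quantile normalization and without the 3 mice of low technical correlation, with adjusted p = 0.0106 to 0.377 for the rise and 0.0122 to 0.323 for the fall. The rise was also lost without untreated mouse 2 or day 2 mice 3 or 5. The fall was also lost with technical arrays 2 alone, with days 5 and 2 fitted by themselves, and without day 2 mice 3 or 5 or day 5 mice 1, 3, 4 or 5. Tgfb2, the other member of this family, had a day 2 difference of -0.32 (adjusted p = 0.222), which was -0.55 and passed with technical arrays 1 alone and was -0.18 with technical arrays 2 alone (adjusted p = 0.0375 and 0.637, the lowest and highest over the settings run). Tgfb1 and Tgfb3 had too few values to be tested. Stroma and endothelium markers had 2 of 11 probes higher on day 2 (Clu and Col14a1), when 3.31% of all probes rose. Their centred mean was -0.43 to 0.58 on day 2, against -0.83 to -0.09 in untreated mice. The part of these cells in the rise of Tgfbr2 was not tested.

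**Figure D3:**
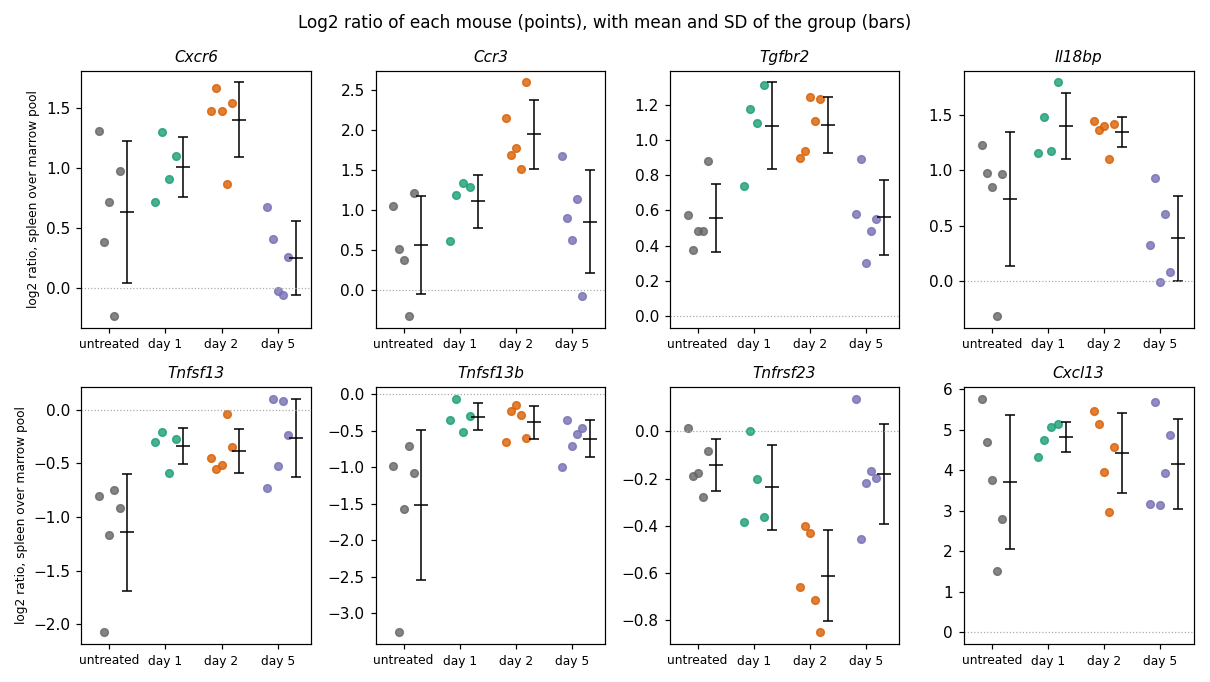
Log2 ratio over the marrow pool (vertical axes) of each mouse (points), with the mean and SD of each group (bars), for the 7 members that passed a test in any comparison and for Cxcl13. Ccr3, Cxcr6, Tgfbr2 and Il18bp are lower on day 5 than on day 2, Tnfsf13 is above all untreated mice in every treated group, and Tnfrsf23 is lowest on day 2.

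The promoters of the 5 genes that rose on day 2 are shown because these are the members with an upward call against untreated mice, each as the 250 bases before the RefSeq start on the gene's own strand (assembly GRCm38.p6). Both strands were searched for 4 motifs: GAAANNGAA, the core of the interferon-stimulated response element, TTCNNNGAA, the gamma-activated site of STAT factors, TGANTCA, bound by AP-1, and the consensus of NF-kB. Capitals mark the matches.
Ccr3 promoter (chr9:124021721-124021970, + strand): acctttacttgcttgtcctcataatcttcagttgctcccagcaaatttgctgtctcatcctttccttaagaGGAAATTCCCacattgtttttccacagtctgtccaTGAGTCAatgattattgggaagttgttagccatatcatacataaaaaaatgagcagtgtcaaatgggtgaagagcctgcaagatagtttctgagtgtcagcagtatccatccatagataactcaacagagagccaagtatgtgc
Cxcr6 promoter (chr9:123806227-123806476, + strand): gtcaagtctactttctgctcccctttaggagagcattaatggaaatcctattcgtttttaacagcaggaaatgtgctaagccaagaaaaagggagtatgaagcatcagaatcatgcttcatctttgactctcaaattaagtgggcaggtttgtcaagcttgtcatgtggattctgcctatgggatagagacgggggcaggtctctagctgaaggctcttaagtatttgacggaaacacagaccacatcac
Tgfbr2 promoter (chr9:116175364-116175613, - strand): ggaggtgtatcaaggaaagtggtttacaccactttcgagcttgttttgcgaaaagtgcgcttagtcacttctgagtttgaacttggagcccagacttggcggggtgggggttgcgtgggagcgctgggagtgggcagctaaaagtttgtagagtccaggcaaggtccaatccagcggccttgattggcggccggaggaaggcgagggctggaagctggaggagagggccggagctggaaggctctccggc
Tnfsf13 promoter (chr11:69685555-69685804, - strand): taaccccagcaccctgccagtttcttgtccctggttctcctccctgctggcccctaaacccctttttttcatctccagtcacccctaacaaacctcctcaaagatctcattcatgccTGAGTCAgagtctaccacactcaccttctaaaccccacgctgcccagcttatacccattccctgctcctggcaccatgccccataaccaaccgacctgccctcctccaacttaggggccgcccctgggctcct
Tnfsf13b promoter (chr8:10006383-10006632, + strand): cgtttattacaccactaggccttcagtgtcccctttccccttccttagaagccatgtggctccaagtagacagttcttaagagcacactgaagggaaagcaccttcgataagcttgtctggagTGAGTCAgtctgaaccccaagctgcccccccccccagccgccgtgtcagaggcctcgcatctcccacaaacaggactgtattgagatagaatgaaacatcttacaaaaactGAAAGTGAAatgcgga
The Ccr3 window held the NF-kB consensus, as GGAAATTCCC, and the AP-1 motif, as TGAGTCA, starting 179 and 144 bases before the start. TGAGTCA also lay in the Tnfsf13 window, 133 bases before the start, and in the Tnfsf13b window, 127 bases before it. The Tnfsf13b window shown is that of the second of its annotated starts, and it also held GAAAGTGAA 16 bases before the start. None of the 4 motifs was found in the windows of Cxcr6 and Tgfbr2 or in that of the first start of Tnfsf13b. Of 32851 promoters in the RefSeq table, 7.13% held GAAANNGAA, 7.02% TTCNNNGAA, 6.75% TGANTCA and 7.25% the NF-kB consensus. A match describes letters and shows no binding.

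Among 9 probes of interleukin receptors and binding proteins none passed against untreated mice on any day as reported, and Il18bp fell between day 2 and day 5. Il18bp is a secreted protein that binds IL-18 and blocks it. Its log2 ratios were 0.33, 0.93, -0.0041, 0.60 and 0.08 on day 5, against 1.44, 1.36, 1.39, 1.10 and 1.41 on day 2. The groups did not overlap, and the fall was 0.95 ± 0.23 on the log2 scale, or 1.94-fold (adjusted p = 0.0183). Untreated mice were at 1.23, 0.98, 0.85, -0.31 and 0.97, and the difference on day 2 was 0.60 ± 0.23 (adjusted p = 0.13). Day 1 mice were at 1.15, 1.47, 1.17 and 1.79, with a difference of 0.66 (adjusted p = 0.199). Without untreated mouse 4, at -0.31, these differences were 0.34 and 0.39 (adjusted p = 0.331 and 0.403; over all settings run 0.0833 to 0.854 on day 2 and 0.133 to 0.774 on day 1). The fall was lost with technical arrays 1 alone, under quantile normalization, at equal spread, and without day 5 mouse 3 or 5 (adjusted p = 0.0016 to 0.153). Macrophage markers had 1 of 9 probes lower (Siglec1) and 1 higher (C1qa) between day 2 and day 5, and mature B cell markers 2 of 8 lower (Cd22 and Ms4a1). Of all probes 1.5% fell and 3.8% rose between these days. The part of these cells in the fall of Il18bp was not tested.

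Il1rap, the coreceptor of the IL-1 family, lay closest to the threshold among the other interleukin receptors. It averaged -0.32 ± 0.48 in untreated mice, 0.12 ± 0.15 on day 1, 0.27 ± 0.13 on day 2 and 0.27 ± 0.34 on day 5 (SD, n = 5, 4, 5 and 5). The differences on days 2 and 5 were 0.59 each (adjusted p = 0.0674 and 0.871). Untreated mice 2 and 3, at -0.61 and -1.03, were below every other mouse. Il17ra, a chain of the receptor for IL-17, differed by 0.03 on day 2 (adjusted p = 0.975) with untreated mouse 2 at -3.57. Without this mouse the day 2 difference of Il17ra was -0.57 and passed (adjusted p = 0.0194, and 0.0194 to 0.99 over all settings run), as it did without the 3 mice of low technical correlation. Il1r1, the signalling receptor of IL-1, differed by 0.49 on day 2 (adjusted p = 0.227), and Il10rb, a shared chain of the IL-10 receptor family, by -0.63 (adjusted p = 0.263) with values in 3 day 2 mice and 4 untreated mice. Differences on day 2 ran between -0.63 and 0.60 in this class, and 7 of 9 were above 0, against 50.9% of all probes.

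None of 19 interleukin probes passed in any comparison as reported, and their differences on day 2 ran between -0.22 and 0.68 with a median of -0.07. The highest was Il34, a ligand of the macrophage growth receptor Csf1r, at 1.33 ± 0.34 on day 2 and 0.65 ± 0.50 in untreated mice (difference 0.68, adjusted p = 0.16). It was 0.80 lower on day 5 than on day 2 (adjusted p = 0.111). Il1a, an alarm cytokine, differed by 0.45 on day 2 (adjusted p = 0.149), where day 2 mouse 1, at 0.66, was the highest and mouse 3 had no value. Il13, a cytokine of type 2 immunity, was lower on day 2 than in any untreated mouse (-0.23, 0.01, 0.02, -0.28 and 0.03 on day 2, against 0.15, 0.04, 0.07, 0.21 and 0.04), a difference of -0.19 that did not pass (adjusted p = 0.418). Il12a, a subunit of IL-12, was above every untreated mouse on day 1, with a difference of 0.23 (adjusted p = 0.436). Il2, Il4, Il10, Il17a and Il21, which T cells can make, differed by 0.14 or less in either direction on day 2. Il13, which T cells can make too, went beyond this bound with its -0.19.

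None of 17 chemokine probes passed in any comparison as reported. Ccl25, which attracts thymocytes and gut lymphocytes, averaged -0.90 ± 0.63 in untreated mice, -0.43 ± 0.20 on day 1, -0.36 ± 0.22 on day 2 and -0.42 ± 0.16 on day 5, and its differences of 0.48, 0.55 and 0.48 did not pass (adjusted p = 0.378, 0.135 and 0.923). Without untreated mouse 4, which had 0.00 against -1.61 to -0.70 in the others, the day 2 difference of Ccl25 was 0.77 and passed (adjusted p = 0.01, and 0.01 to 0.324 over all settings run). Without untreated mouse 2 the differences of Ccl25 were 0.30, 0.37 and 0.30 on days 1, 2 and 5. The neutrophil attractant Cxcl5 differed by 0.47 on day 2 (adjusted p = 0.25). Its 2 arrays disagreed in day 2 mouse 1, at -0.54 and 1.94, and in day 2 mouse 2, at -0.29 and 0.66. Ccl3, made by activated macrophages and T cells, had differences of 0.19, -0.04 and 0.22 on days 1, 2 and 5.

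Interferons, their receptors, colony stimulating factors and the Tnfaip series held no member that passed. Interferon gamma (Ifng) averaged -0.21 ± 0.19 on day 2 and -0.38 ± 0.19 in untreated mice (adjusted p = 0.523), and its receptor chain Ifngr1 -0.12 ± 0.34 and -0.25 ± 0.18 (adjusted p = 0.758). The 3 interferon alpha probes, Ifna2, Ifna4 and Ifna9, stand for near-identical genes that a probe may not tell apart, and differed by 0.18, -0.15 and 0.05 on day 2. Csf1, the macrophage growth factor, differed by 0.40 on day 1 and 0.22 on day 2, Csf2ra, a GM-CSF receptor chain, by -0.04 and 0.14, and Csf3r, the G-CSF receptor of neutrophils, by -0.13 and 0.23 (adjusted p = 0.567 and 0.674, 0.974 and 0.718, and 0.888 and 0.584). Tnfaip8l1 had the largest difference of its class on day 2, 0.54 (adjusted p = 0.11). Tnfaip3 (A20, an inhibitor of NF-kB signalling) averaged -0.34 ± 0.67 on day 2, where mouse 1 was at -1.53 and the other mice between -0.11 and 0.03. The 2 arrays of that mouse disagreed, at -0.21 and -2.86. Tnfaip6, an inflammation-induced matrix protein, differed by -0.27 on day 2 (adjusted p = 0.434), and Tnfaip8l2, an inhibitor of immune activation, by 0.01.

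Groups that do not overlap were about as frequent among members as among all probes. On day 2, 7 members had day 2 mice all on 1 side of the untreated mice (8.84% of all probes did so): Ccr3, Tnfsf13, Tnfsf13b and Tgfbr2 above them, and Il13, Il10rb and Tnfrsf23 below. On day 1 there were 5 (8.32% of all probes): Il12a, Tnfsf13, Tnfsf13b and Tnfrsf21 above, and Tnfsf8 below. On day 5 there were 2 (1.59% of all probes), Tnfsf13 and Tnfrsf21. In both the lowest day 5 mouse lay close to the highest untreated mouse (-0.728 against -0.754, and 0.193 against 0.191). Between day 2 and day 5 there were 5 (7.37% of all probes), with Il10rb above and Il18bp, Cxcr6, Tnfsf14 and Tgfbr2 below, and between day 1 and day 2 also 5 (3.39% of all probes), Ccr3 and Tnfrsf17 above and Il13, Ccl8 and Tnfrsf23 below. Tnfsf13 did not overlap the untreated mice on all 3 days. The 3 comparisons share the untreated mice, and the share of all probes that did so on all 3 days was not counted.

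Genes of the signalling pathways of such receptors were read from lists, and their calls were not followed under other settings. Of 26 genes of the NF-kB pathway and TNF receptor adaptors 11 were tested, and 2 rose on day 2 with none falling, at a median of 0.11. The shares of all probes that rose and fell were 3.31% and 5% on day 2, and 0.938% and 1.39% on day 1. Between day 2 and day 5 they were 3.8% and 1.5%. Nfkbia, the inhibitor that NF-kB itself induces, rose on day 1 (0.82 ± 0.20, adjusted p = 0.0269) and day 2 (0.70 ± 0.18, adjusted p = 0.0207). Birc3, an adaptor of TNF receptors, rose on day 2 (0.85 ± 0.18, adjusted p = 0.00429) and fell by 0.71 between day 2 and day 5 (adjusted p = 0.0239). Of 23 JAK, STAT and SOCS genes 11 were tested and 1 rose on day 2, Stat3, which transmits signals of the IL-6 and IL-10 families (0.81 ± 0.22, adjusted p = 0.0227, list median 0.12). In 29 genes of chemokine receptor signalling 11 were tested, among them Ackr2, Ackr3, Cx3cr1 and Xcr1, which are receptors themselves. Rgs1, which curbs signalling by chemokine receptors, rose on day 1 (0.88 ± 0.23, adjusted p = 0.0471), and Grk6, a kinase that desensitises receptors, fell by 0.91 ± 0.20 on day 2 (adjusted p = 0.00663). None of 8 tested genes of the IL-1 and Toll adaptors and none of 4 tested SMAD pathway genes passed in any comparison, with day 2 medians of 0.15 and 0.24.

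Untreated spleens also gave the level of each member relative to marrow. These ratios carry any bias of the dyes, since no array had the dyes exchanged, and they compare a gene with itself in marrow, not 1 gene with another. The mean log2 ratio was above 0 for 36 of 86 members, and 3708 of all 8319 probes. Cxcl13, the chemokine of B cell follicles made by follicular stromal cells, stood highest at 3.71 ± 1.65 (SD, n = 5), which was also the highest untreated mean of all probes tested. Its untreated mice were at 5.77, 4.71, 3.76, 1.52 and 2.81, all above 0, and 1 of the arrays of mouse 1 was at the bound of 6 that the deposited values do not pass. Cxcl13 averaged 4.82 on day 1, 4.42 on day 2 and 4.16 on day 5, within the range of the untreated mice, and the day 1 difference of 1.11 did not pass (adjusted p = 0.525).

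Next in untreated mice came Ccr6 (1.24), Ccl2, which attracts monocytes (0.77), Tnfrsf13b (0.75), Il18bp (0.74), Il34 (0.65), Cxcr6 (0.63), Ccr3 (0.57) and Tgfbr2 (0.56). From Ccl2 down to Tgfbr2 each differed from the next by less than its SD. At the low end were Cxcr4 (-1.70 and -1.19 on its 2 probes), Tnfsf13b (-1.52), Il17ra (-1.17), Tnfsf13 (-1.14), Ccl6 (-1.13), Il1rn (-1.09) and Csf3r (-1.02), genes that blood cell precursors or myeloid cells express. Both arrays of untreated mouse 2 were low for Il17ra, at -3.69 and -3.45, where the other untreated mice were between -0.81 and -0.44.

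**Figure D4:**
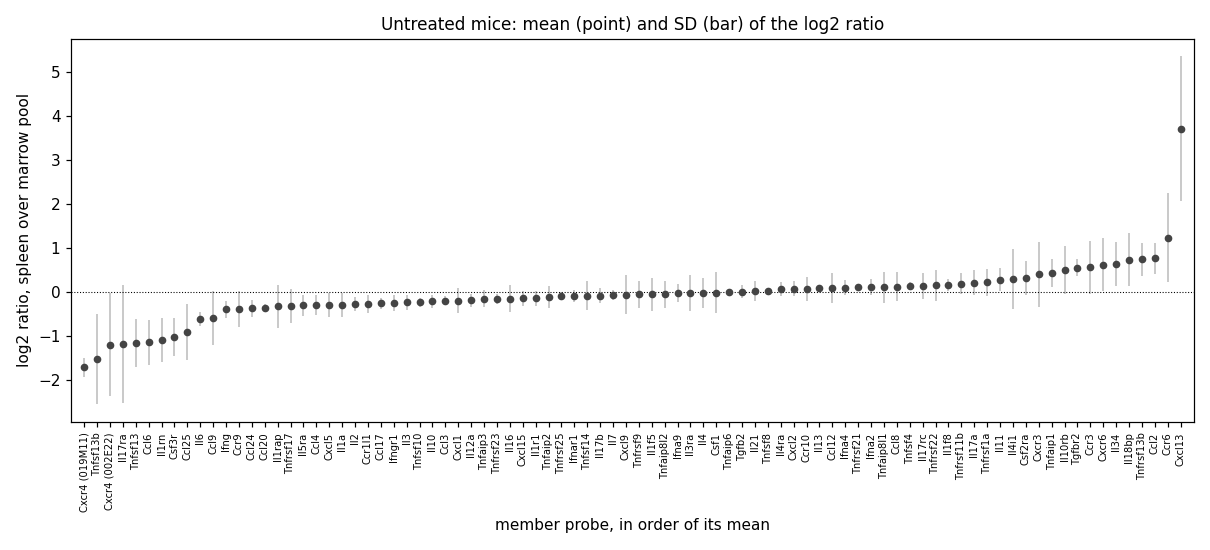
Mean (point) and SD (bar) of the log2 ratio over the marrow pool in the 5 untreated mice for each member probe, in order of the mean; the dotted line is a ratio of 1. Cxcl13 stands apart at 3.71, and Cxcr4, Tnfsf13b and Tnfsf13 lie at the low end.

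A further 64 probes with matching names had too few values to be tested, and 62 of the 147 genes of the family had no tested probe. Of these 64 probes, 12 had no value in any mouse, among them those of Ccl5, Ccr2, Ccl19, Cxcr5 and Cxcl11, and the median was 2.5 of 19 mice. Missing values were a feature of the array data as a whole: probes with matching names had values in 60.8%, 66%, 64.1% and 66.7% of untreated, day 1, day 2 and day 5 mice, and all probes in 64.3%, 68.9%, 67% and 69.9%. The probes of Il1f6, Il1r2, Il15 and Tnfsf12 had values in no untreated mouse and in 3 or more mice of a treated group. Il1r2, the decoy receptor for IL-1, had values in 3 day 2 mice (mean 0.21) and 2 day 5 mice, and Tnfsf12 (TWEAK) in 4 day 5 mice, 1 day 2 mouse and 2 day 1 mice. No source used here says when a value was left out, so a missing value is not a level of 0.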

How the data were processed

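Total RNA of splenocytes was amplified and labelled with Cy5, and RNA of the bone marrow pool with Cy3, per the labels' protocols. The reference is described as untreated, while its treatment field names cyclophosphamide at 83 mg/kg. The reference is common to all arrays and cancels between groups. The deposited values are log2 ratios, spleen over marrow; the base was taken as 2, and values end at a size of 6. Array medians lie between -0.0212 and 0.0132, so the deposited log2 values are centred. The software, the background correction, the spot filter and the normalization method are not given in the sources used, nor is a slide or scan date, so no batch was tested. An array holds 5829 to 10407 values.

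Technical arrays were averaged per mouse, 19 mice on 38 arrays, though 5 per condition are named in the design text. Group means were fitted with limma 3.58.1 (lmFit, eBayes) in R 4.3.3 over 8319 probes measured in 3 or more mice of each group; groups share the spread (prior variance 0.0674 on 5.52 degrees of freedom). Standard errors are moderated, and the fit omits a mouse without a value. The tests are two-sided, with Benjamini-Hochberg adjustment, and were tested on simulated data. Names came from the platform's probe table. The members, classes and lists were chosen with earlier results of these data known. Genes are named that passed any test, with up to 4 more per class by the smallest F-test p; others are named for contrast, for their level in untreated mice or for missing values, and were chosen after their values were seen. Mouse numbers do not pair the groups: 27 same-numbered pairs correlated at -0.00472 on average (-0.249 to 0.325) after group means were removed. P-values measure the spread between mice, which the design text calls independently harvested. Alternatives were other scalings, filters, technical arrays alone, array weights, a block on mouse number, fits of the compared groups alone and leaving out each mouse. Promoters are RefSeq's (GRCm38.p6). Python 3.11.15 with matplotlib 3.10.9 drew the figures.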

Additional observations from a re-analysis of the deposited data

Results flagged for a closer look

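Among 145 groups of named members, 13 held a mouse that stood apart from the rest by Dixon's ratio, the gap to the nearest mouse over the whole range of the group. Chance alone puts about 1 in 20 groups there.

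In untreated mice, Il10rb was at 1.33 in mouse 4, against 0.20 to 0.28 in the others (ratio 0.935). Tnfsf14 was at -0.66 in mouse 5, against 0.01 to 0.11 (0.878). Il18bp was at -0.31 in mouse 4, against 0.85 to 1.23 (0.752), and Il12a at -0.43 in mouse 2, against -0.17 to -0.08 (0.729). Mice 2 and 4 are the untreated mice of lowest technical correlation.

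On day 1, Tnfaip8l1 was at 0.70 in mouse 2, against 0.11 to 0.15 (0.926), and Csf3r at -0.79 in mouse 1, against -1.30 to -1.25 (0.902). On day 2, Tnfaip3 was at -1.53 in mouse 1, against -0.11 to 0.03 (0.91), where the 2 arrays of mouse 1 gave -0.21 and -2.86. Mouse 4 of that day was lowest for Il18bp, at 1.10 against 1.36 to 1.44 (0.78), and for Cxcr6, at 0.87 against 1.47 to 1.67 (0.76). Ccl25 was at 0.01 in day 2 mouse 3, against -0.51 to -0.37 (0.723), and Tnfsf14 at 0.12 in day 2 mouse 1, against -0.46 to -0.29 (0.716). The 2 arrays behind this Tnfsf14 value gave -0.18 and 0.42. On day 5, mouse 2 stood apart for Tgfb2, at 0.17 against -0.37 to -0.30 (0.859), and for Csf3r, at -1.60 against -0.90 to -0.71 (0.791). For Tgfb2 the 2 arrays of this mouse gave -0.15 and 0.50.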

How the results depend on the processing

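No called result of a member changed sign under 31 other settings. The calls of the downstream signalling genes and of the marker genes were not followed under these settings. Of 190 named results 10 passed, and of 5485 values of the others 33 passed elsewhere. Il17ra, Ccr9 and Tnfsf8 lay outside the naming rule and were described after their values were seen: the day 2 difference of Il17ra was -0.57 and passed without untreated mouse 2 or without the 3 mice of low technical correlation, against 0.03 as reported. Quantile normalization and equal spread lowered most counts: members that changed were 2 and 2 on day 2 (6 as reported), 0 and 0 between day 2 and day 5 (4), 2 and 1 in the F-test (5), and 2 on day 1 under quantile normalization (0). All probes that changed were 338 and 353 on day 2 (691), 83 and 144 between day 2 and day 5 (441), 285 and 270 in the F-test (499), 0 and 0 between day 1 and day 2 (5), and at equal spread 117 on day 1 (194) and 0 on day 5 (6). At equal spread 28.6% of the day 2 calls and 86.8% of those between day 2 and day 5 were upward, against 39.8% and 71.7% as reported, and under quantile normalization 50% on day 5, against 66.7%. The cause was not tested.

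With technical arrays 1 alone, 1 member changed on day 1, 1 between day 2 and day 5 and 3 in the F-test; with technical arrays 2 alone, 2 between day 2 and day 5, and 0 probes on day 5. Without the 3 mice of low technical correlation 1 member changed on day 1, 2 between day 2 and day 5 and 3 in the F-test, and 113, 409 and 1 probes on days 1, 2 and 5. Array weights gave 3 members and 403 probes on day 1 and 25 probes between day 1 and day 2. Among probes with a value in every mouse, 3 members changed on day 1. A filter of 1 mouse per group gave 11 probes on day 5 and 8 between day 1 and day 2. Fits of the compared groups alone, which have fewer samples, gave 2 members and 449 probes on day 2, 1 probe on day 5 and 1 between day 1 and day 2. With a block on mouse number, members that changed were 8 on day 2, where Il10rb (-0.72, adjusted p = 0.0479, and 0.0479 to 0.688 over the settings run) and Cxcl5 (0.63, adjusted p = 0.0395, and 0.0395 to 0.906) were gained, 3 between day 2 and day 5, where Ccr3 was lost, and 4 in the F-test, and probes were 178, 615 and 0 on days 1, 2 and 5, 3 between day 1 and day 2, 392 between day 2 and day 5 and 459 in the F-test.

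Leaving out each mouse gave 0 to 1 members and 99 to 219 probes on day 1 (lowest without day 1 mouse 2), 2 to 7 and 503 to 683 on day 2 (fewest members without day 2 mouse 5), 0 to 0 and 0 to 5 on day 5, 0 to 0 and 3 to 9 between day 1 and day 2, 1 to 6 and 296 to 452 between day 2 and day 5 (fewest members without day 5 mouse 3 or 5), and 3 to 7 and 388 to 484 in the F-test. Dim signals could not be assessed, as no intensities were used.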
